A study of Gallus gallus with 8 samples.

Results

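Peaks on unplaced and unlocalised scaffolds made up 708 of the 69159 CUT&Tag peaks listed for 8 chicken (Gallus gallus) liver libraries, or 1.02%. A scaffold is a stretch of assembled sequence that has no position on a chromosome. Peaks were taken as members when their sequence name was neither chrZ, chrW nor chr followed by digits alone. The members lay on 59 scaffolds. Of these, 5 are random scaffolds, whose name gives a parent chromosome, and 54 are chrUn scaffolds, whose name gives none. The other 68451 peaks lay on numbered chromosomes, Z or W.

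The libraries came from livers of birds under high temperature (4 libraries, numbered 1 to 4) and under normal temperature (4 libraries, numbered 1 to 4), per the labels. CUT&Tag uses an antibody to bring a transposase to chromatin, so that sequence near the bound protein is cut out and read. The series names Nrf2 as the regulator of interest. The sources used here do not give the primary antibody, the strain, age or sex of the birds, the temperatures or the length of exposure. No label says that each library is a separate bird, so p-values measure the spread between these libraries, which may be technical. The lists give positions and a score per peak but no read counts, so the depth behind a peak is unknown. Liver marker genes could not be checked, since a gene annotation of the build was not used here. High temperature 1 stood apart from the other 7 libraries, with 1784 of its 7550 peaks wider than 500 bp against 33 to 136 elsewhere, and it shared 937 peaks of identical start and end with high temperature 3. Many results that rest on it are therefore also given without it.

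Nrf2 is a transcription factor that is released under oxidative stress and turns on genes of antioxidant defence and detoxification, for which the liver is a main site. Scaffolds without a position are commonly short and rich in repeats or in sequence with near-identical copies elsewhere, and reads from such copies can pile up on the 1 copy that was assembled. The handling of reads with several matches is not stated in the labels. In birds, microchromosomes and the female-specific W are hard to assemble. Chromosome 16 of the chicken carries the major histocompatibility complex and the ribosomal RNA gene array.

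Peaks on scaffolds were few in every list, and high temperature 1 held the most. High temperature 1, 2, 3 and 4 held 221, 65, 63 and 47 scaffold peaks, against 90, 76, 75 and 71 in normal temperature 1, 2, 3 and 4. High temperature 1 lay above all normal libraries and the other 3 high temperature libraries lay below all of them. As a share of each list, scaffold peaks were 2.93%, 0.850%, 0.763% and 0.603% at high temperature, against 1.09%, 0.847%, 0.743% and 0.670% at normal temperature. The 95% exact Clopper-Pearson interval of the share was 2.56% to 3.33% in high temperature 1. Over the other 7 libraries these intervals, which cover counting error only, ran from 0.444% at the lowest to 1.34% at the highest bound. The mean share was 1.29% ± 1.10 at high and 0.837% ± 0.183 at normal temperature (SD, n = 4 each). The difference of 0.448 percentage points was smaller than the SD at high temperature and larger than the SD at normal temperature (two-sided exact permutation p = 0.743, adjusted p = 1 over 9 measures). Without high temperature 1 the difference was -0.0986 points, and the difference in the number of peaks was -19.7 instead of 21.

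**Figure D1:**
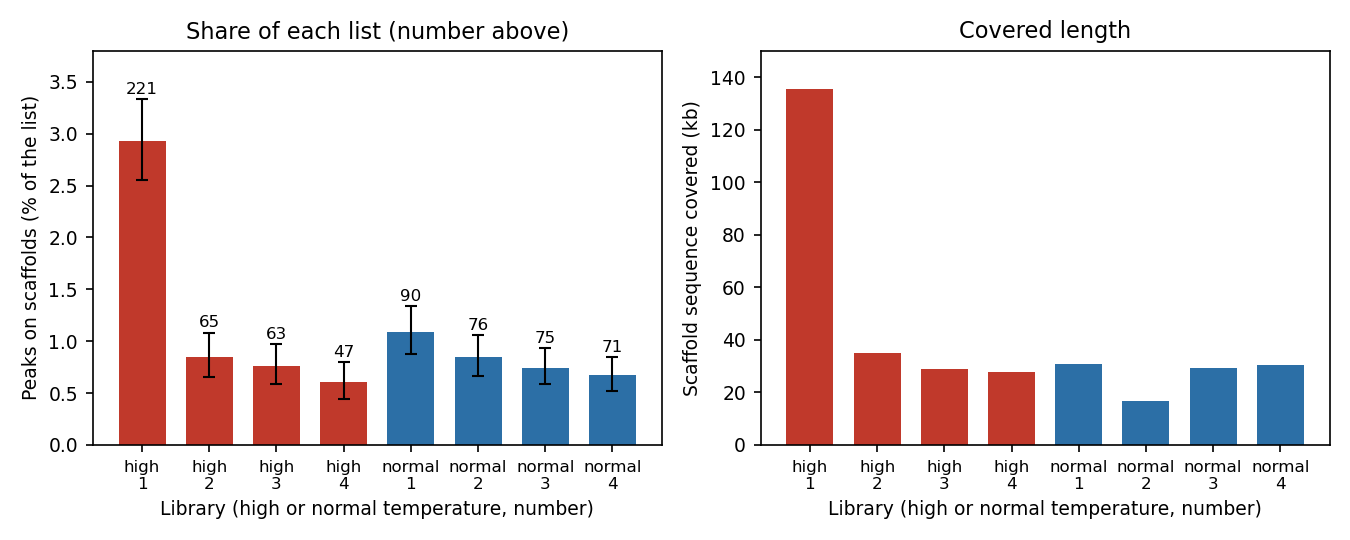
The left panel plots scaffold peaks as a percentage of each list, with bars for the 8 libraries (red, high temperature; blue, normal temperature), 95% exact Clopper-Pearson intervals and the number of peaks above; the right panel plots the scaffold sequence covered in kb. High temperature 1 reaches 2.93% and 135 kb, and the other 7 libraries lie between 0.603% and 1.09% and between 16.8 and 34.9 kb.

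The scaffold sequence covered by peaks was 135, 34.9, 28.7 and 27.8 kb in high temperature 1 to 4, against 30.9, 16.8, 29.4 and 30.3 kb in normal temperature 1 to 4. High temperature 1 was again the highest, high temperature 2 also lay above all normal libraries, and normal temperature 2 was the lowest. The whole lists covered 1695 to 2909 kb at high and 1783 to 2332 kb at normal temperature. Scaffolds held 4.65%, 2.06%, 1.60% and 1.59% of the covered length at high temperature, against 1.73%, 0.907%, 1.36% and 1.30% at normal temperature. The share of covered length exceeded the share of peaks in 8 of 8 libraries.

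A few chrUn scaffolds carried most of the peaks. The 8 fullest held 555 of the 708 peaks (78.4%) and the 3 fullest held 365 (51.6%). In all, 27 scaffolds had 1 peak over the 8 libraries, and 33 had peaks in 1 list only. There were 9 scaffolds with a peak in every list, namely the 8 fullest and chr1_NW_020109739v1_random.

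The scaffold chrUn_NW_020110167v1 came first with 155 peaks. It held 43, 13, 13 and 12 peaks in high temperature 1 to 4, against 18, 17, 23 and 16 in normal temperature 1 to 4. High temperature 1 was the highest, and the other 3 high temperature libraries lay below every normal one. The second, chrUn_NW_020110165v1, had 133 peaks, with 44, 11, 12 and 9 at high temperature, against 18, 16, 12 and 11 at normal temperature. The third, chrUn_NW_020110164v1, had 77 peaks, with 21, 7, 5 and 6 at high temperature, against 11, 11, 9 and 7 at normal temperature. On these 2 scaffolds as well, high temperature 1 was above all normal libraries, and the other high temperature libraries were at or below the normal range or within it.

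On the next scaffolds the order varied. On chrUn_NW_020110163v1, with 47 peaks, high temperature 2 (10 peaks) and normal temperature 1 (11 peaks) were highest and normal temperature 2 (2 peaks) was lowest. On chrUn_NW_020110162v1, with 46 peaks, normal temperature 2 was highest with 11 peaks and high temperature 4 lowest with 1. The scaffold chrUn_NW_020110161v1 had 42 peaks, with 18, 3, 3 and 2 at high temperature, against 7, 3, 3 and 3 at normal temperature. Here high temperature 1 was again above all normal libraries and the other 3 were at or below them. The groups overlapped on all 3 scaffolds. The rest of the 10 fullest were chrUn_NW_020110160v1 with 37 peaks, chrUn_NW_020110158v1 with 18, chrUn_NW_020109838v1 with 15 and chrUn_NW_020110136v1 with 11. The other 49 scaffolds held 127 peaks, at most 10 each.

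**Figure D2:**
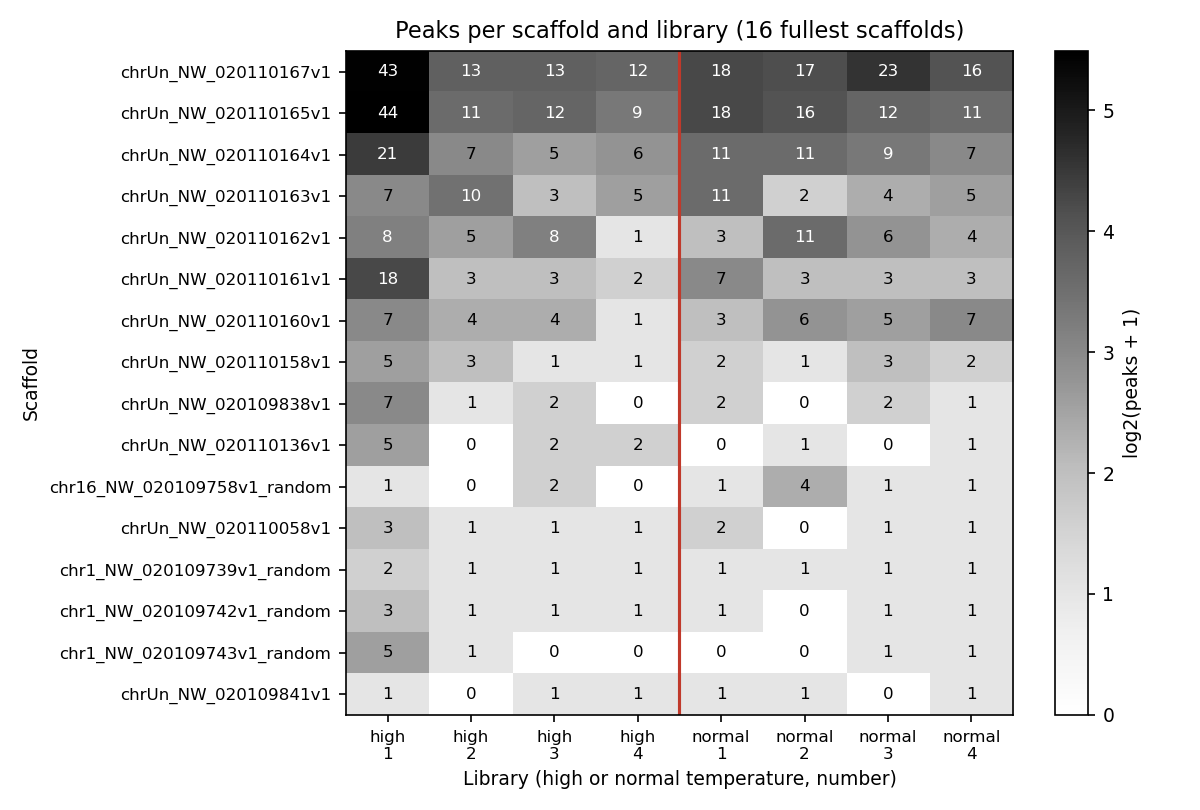
The heat map gives the number of peaks on each of the 16 fullest scaffolds (rows) in each library (columns, high temperature left of the red line, normal temperature right of it), shaded by log2(peaks + 1). The first column, high temperature 1, is the darkest on the 3 fullest scaffolds, with 43, 44 and 21 peaks.

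The share of the list on each sequence was tested between temperatures for all chromosomes and scaffolds with at least 16 peaks, which were 42 sequences, 8 of them scaffolds. None of the 42 passed an adjusted p of 0.05 (0.0% called; two-sided exact permutation test, Benjamini-Hochberg), and 3 had an unadjusted p under 0.05, of which 0 were scaffolds. The scaffold with the largest difference, chrUn_NW_020110165v1, held 0.247% ± 0.224 of the list at high and 0.155% ± 0.0530 at normal temperature (SD, n = 4 each, exact permutation p = 0.714, adjusted p = 0.914). The 8 scaffolds had an adjusted exact permutation p of 0.914 each. The smallest p that 4 against 4 libraries can give is 0.0286, which passes such an adjustment only when many sequences reach it.

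Peaks on random scaffolds were a small fraction of the members, and most of them belonged to chromosome 1. They numbered 37 (5.23%), against 671 (94.8%) on chrUn scaffolds. Chromosome 1 is the parent of 3 scaffolds with 26 peaks, chromosome 16 of 1 scaffold with 10 peaks and chromosome W of 1 scaffold with 1 peak. Random scaffolds took 5.43%, 4.62%, 6.35% and 4.26% of the scaffold peaks in high temperature 1 to 4, against 3.33%, 6.58%, 5.33% and 5.63% in normal temperature 1 to 4. The groups overlapped, and their means differed by -0.0574 percentage points (exact permutation p = 0.914). The sign of this difference changed without high temperature 2 (0.125), without high temperature 4 (0.245), without normal temperature 2 (0.396) and without normal temperature 4 (0.0806).

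The random scaffolds of chromosomes 1 and 16 carried peaks of unlike shape. The 26 peaks of the chromosome 1 scaffolds had a median width of 901.5 bp and came from all 8 libraries, with 10, 3, 2 and 2 peaks at high temperature, against 2, 1, 3 and 3 at normal temperature. The 10 peaks of chr16_NW_020109758v1_random had a median width of 200 bp and none exceeded 271 bp. Normal temperature 2 held 4 of these 10 peaks and high temperature 3 held 2, and high temperature 2 and 4 held 0. The single peak on chrW_NW_020109817v1_random, from 8223 to 8643, belonged to high temperature 1. These positions, like all others here, are in galGal6, counted from 1.

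Scaffold peaks differed from the other peaks of the same list in width. Peaks wider than 500 bp were 49.8%, 23.1%, 20.6% and 25.5% of scaffold peaks in high temperature 1 to 4, against 22.8%, 1.00%, 0.781% and 1.06% of the other peaks of those lists. In normal temperature 1 to 4 they were 11.1%, 2.63%, 14.7% and 19.7% of scaffold peaks, against 0.808%, 0.349%, 0.629% and 1.16% of the other peaks. The share was higher on scaffolds in 8 of 8 libraries. The mean difference within a library was 17.3 ± 8.11 percentage points (SD, n = 8 libraries; two-sided exact sign-flip permutation p = 0.00781, the smallest that 8 libraries allow; adjusted p = 0.0312 over 4 measures). Without any 1 library the mean difference was 15.9 to 19.5 points and the adjusted exact permutation p was 0.0625, the smallest that 7 libraries can give when the other measures do not reach the smallest p too. On the 8 scaffolds that extend past 300 kb the mean difference was 9.72 points (adjusted exact permutation p = 0.0625). This measure was added after the data were seen.

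Wide peaks were thus concentrated on scaffolds relative to their share of all peaks. Scaffolds held 187 of the 2365 peaks wider than 500 bp (7.91%), against 1.02% of peaks of any width. Without high temperature 1, wide peaks were 77 of 487 scaffold peaks (15.8%), against 504 of 61122 other peaks (0.825%). Of these 77, 56 (72.7%) lay in places where joined overlapping peaks came from at least 4 of the 8 lists, against 212 of the 504 (42.1%). With high temperature 1 included, it was 71 of 187 on scaffolds (38.0%), against 262 of 2178 elsewhere (12.0%). The excess of wide peaks on scaffolds thus rests in part on a few places met in several lists. The typical scaffold peak was still narrow. The median width was 200 bp in 6 libraries, 213 bp in high temperature 4 and 500 bp in high temperature 1. The difference from the other peaks of the list was 163 bp in high temperature 1, 13 bp in high temperature 4 and 0 in the other 6 (exact sign-flip permutation p = 0.5, adjusted p = 0.667). With 2 differences other than 0 this test cannot give a smaller p, so nothing is read from it.

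**Figure D3:**
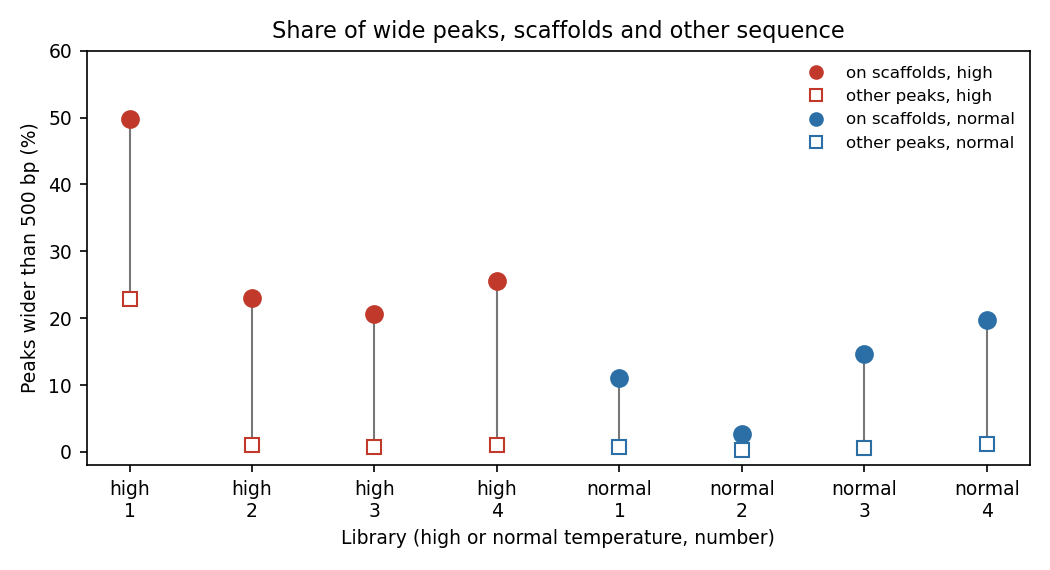
For each library the percentage of peaks wider than 500 bp is plotted for scaffold peaks (filled circles) and for all other peaks (open squares), in red for high and blue for normal temperature. The circle lies above the square in all 8 libraries, and the 4 red circles (20.6% to 49.8%) lie above the 4 blue ones (2.63% to 19.7%).

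Between temperatures, the share of wide peaks on scaffolds did not overlap. It averaged 29.8% ± 13.5 at high and 12.0% ± 7.19 at normal temperature (SD, n = 4 each), a difference of 17.7 percentage points (two-sided exact permutation p = 0.0286, the smallest possible; adjusted p = 0.257 over 9 measures). The difference did not pass the threshold after adjustment. Without high temperature 1 it was 11.0 points, with all 3 remaining high temperature libraries above all normal ones (exact permutation p = 0.0571, the smallest that 3 against 4 libraries allow). The nearest shares were close, at 13 of 63 peaks in high temperature 3 and 14 of 71 in normal temperature 4. Among the other peaks of the lists the groups overlapped, with 0.781% to 22.8% at high and 0.349% to 1.16% at normal temperature. The number of wide scaffold peaks did overlap, with 110, 15, 13 and 12 at high temperature, against 10, 2, 11 and 14 at normal temperature. The share is also set by the number of scaffold peaks, which was 47 to 65 in high temperature 2 to 4, against 71 to 90 at normal temperature. The lowest score in a list was 30.0, 120.0, 80.0 and 100.5 at high temperature, against 80.1, 60.1, 110.2 and 110.1 at normal temperature, and the part of these unequal limits in the result was not tested.

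Peaks of exactly 200 or 250 bp, the commonest widths of these lists, were the counterpart. They were 8.14%, 64.6%, 65.1% and 55.3% of scaffold peaks at high temperature, against 75.6%, 92.1%, 69.3% and 62.0% at normal temperature. The groups overlapped through normal temperature 4, and the difference of -26.5 percentage points had an exact permutation p of 0.0857 and an adjusted p of 0.386. The difference was -13.1 points without high temperature 1.

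Large and small scaffolds differed in how their peaks looked. Scaffold lengths were not used here, so the highest peak end over the 8 lists stands for length, which understates it. By this measure 8 scaffolds reached 352 kb or more, and the other 51 ended at 168 kb or less. The limit of 300 kb between them was set after the data were seen, and the comparison is a description. The 8 large scaffolds, which are the 8 fullest, held 58.6 peaks per Mb over all 8 libraries, against 66.3 on the numbered chromosomes. Single large scaffolds ran from 38.3 peaks per Mb on chrUn_NW_020110162v1 to 77.4 on chrUn_NW_020110167v1. The densities were 42.4 on large scaffolds, against 59.1 on the numbered chromosomes, when high temperature 1 was left out. At high temperature, all 4 libraries together gave 31.1 on large scaffolds, against 29.8 on the numbered chromosomes. High temperature 1 held 153 of the 295 large-scaffold peaks behind that 31.1. The normal temperature libraries together gave 27.4 on large scaffolds, against 36.5 on the numbered chromosomes. The small scaffolds held 153 peaks over a summed extent of 0.886 Mb, or 173 per Mb, and 85 peaks or 95.9 per Mb without high temperature 1. Both values are inflated, because a scaffold with no peak is not counted and because the extent ends at the last peak. The value without high temperature 1 keeps the 0.886 Mb seen over all 8 libraries.

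Width set the 2 kinds apart more clearly. Peaks wider than 500 bp were 82 of 153 (53.6%) on small scaffolds, 105 of 555 (18.9%) on large ones and 3.25% on numbered chromosomes. Without high temperature 1, the shares were 52.9%, 7.96% and 0.859%. On large scaffolds they were 47.7%, 17.9%, 8.16% and 10.8% in high temperature 1 to 4, against 6.85%, 0%, 7.69% and 7.27% in normal temperature 1 to 4. On small scaffolds they were 54.4%, 55.6%, 64.3% and 80% at high temperature, against 29.4%, 22.2%, 60% and 62.5% at normal temperature. The groups overlapped on small scaffolds and did not on large ones, where high temperature 3 and normal temperature 3 differed by 4 of 49 against 5 of 65 peaks. Pooled over the libraries of a group, the share on numbered chromosomes was also higher at high temperature, at 6.26% against 0.781%. High temperature 1 is part of that 6.26%.

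The score of scaffold peaks was compared by rank, as the percentile of a peak within its own list, where 100 is the highest score. Scores were heavily tied, with 3.11% to 50.8% of the peaks of a list at its commonest score, so tied peaks share a mean rank. The median percentile of scaffold peaks was 30.2, 61.2, 56.3 and 58.7 in high temperature 1 to 4, against 50.9, 52.1, 40.5 and 57.6 in normal temperature 1 to 4. High temperature 1 was the lowest of all, and the other 3 high temperature libraries held 3 of the 4 highest medians. The group means were 51.6 ± 14.4 at high and 50.3 ± 7.17 at normal temperature (SD, n = 4 each, exact permutation p = 0.886). The difference of 1.33 became 8.45 without high temperature 1, and it was -1.87, -0.229 and -1.05 without high temperature 2, 3 and 4, and -1.94 without normal temperature 3. No direction can be given for the rank.

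Set against the other peaks of the same list, scaffold peaks ranked neither higher nor lower as a whole. The difference of medians averaged -0.0481 ± 11.5 percentiles and was above 0 in 4 of 8 libraries (exact sign-flip permutation p = 1). It was 2.84 without high temperature 1, 0.876 without normal temperature 1 and 1.505 without normal temperature 3. The top 10% of each list by score held 6.79%, 18.5%, 12.7% and 14.9% of scaffold peaks at high temperature, against 17.8%, 6.58%, 14.7% and 14.1% at normal temperature. This share was above that of the other peaks in 6 of 8 libraries, by 2.72 ± 5.18 percentage points on average (exact sign-flip permutation p = 0.172, adjusted p = 0.344). High temperature 1 and normal temperature 2 were the exceptions. High temperature 1 also held 62 of its 221 scaffold peaks in the lowest 10% of its list.

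The highest-scoring scaffold peak of a list was wider than 500 bp in 6 of 8 libraries. In high temperature 1 and 3 it lay on chrUn_NW_020110058v1, from 5838 to 8680 and from 5861 to 8110, and ranked 14 and 65 in the whole list. In high temperature 2 it lay on chrUn_NW_020110161v1 from 190423 to 192559 and ranked 33, and in normal temperature 1 it lay inside that interval, from 190633 to 192040, and ranked 8. Those 2 places thus gave the highest scaffold peak in 4 libraries. In high temperature 4 it was the only peak of chrUn_NW_020109909v1 (2310 bp wide, rank 27), in normal temperature 4 a peak of 1688 bp on chrUn_NW_020110003v1 (rank 3), and in normal temperature 3 a peak of 200 bp on chrUn_NW_020110156v1 (rank 4). Normal temperature 2 stood out, since its highest scaffold peak ranked 349, was 212 bp wide, and 0 of its scaffold peaks were among the 100 highest of its list.

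A larger share of scaffold regions than of all regions was found in several libraries, which is given as a description with no test. Overlapping peaks (1 bp or more) from any of the libraries were joined into 1 union region, which counts as held by each library with a peak inside. The 708 scaffold peaks formed 583 regions, of which 512 were held by 1 library, 53 by 2, 4 by 3, 5 by 4, 4 by 5, 2 by 6, 2 by 7 and 1 by all 8. Regions held by at least 2 libraries were 71 of 583 on scaffolds (12.2%), against 4.16% of all 66027 union regions. Those held by at least 4 libraries were 14 of 583 (2.40%), against 0.0954% of all regions, and the 14 made up 22.2% of the 63 regions of that kind in the series. The region held by all 8 libraries was 1 of 583 (0.172%), against 0.0212% of all regions.

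**Figure D4:**
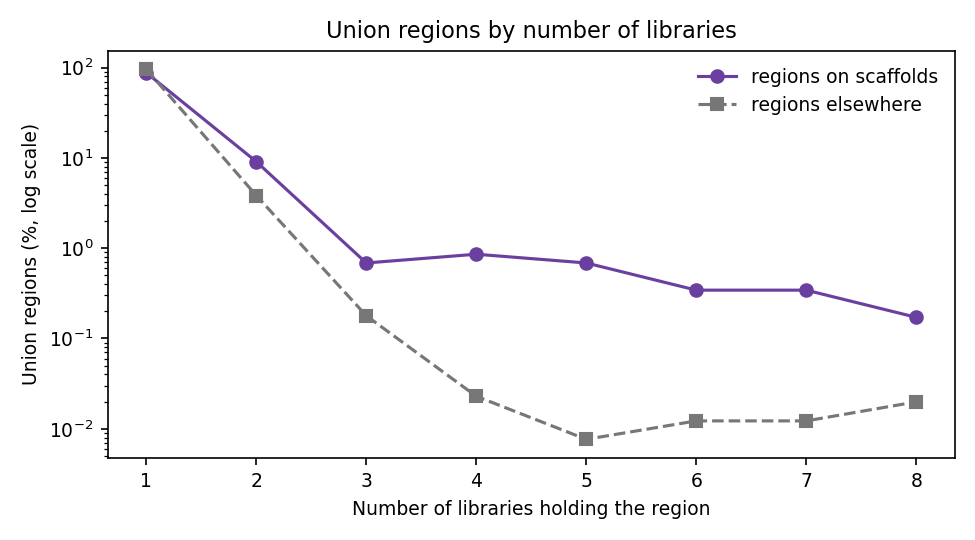
The percentage of union regions (log scale) is plotted against the number of libraries that held the region, for 583 regions on scaffolds (purple circles) and 65444 elsewhere (grey squares). From 2 libraries upward the scaffold line lies above the other, with 0.858% against 0.0229% at 4 libraries.

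The pair of libraries that share identical peaks was present in many of these regions. Among the 71 regions of 2 or more libraries, 58 included high temperature 1, and 20 were held by high temperature 1 and 3 alone. The same counts are not given for regions elsewhere. When the regions of that pair alone were left out, high temperature 1 kept 41 of its 61 shared scaffold peaks. Elsewhere it kept 436 of its 1863 shared peaks. This pair shared 31 scaffold regions, or 14.2% of the regions in high temperature 1 and 49.2% in high temperature 3, whereas the other 27 pairs shared 1 to 17 with a median of 7. It had 7 scaffold peaks of identical start and end, and the other 27 pairs had 0. These 7 were 3.17% of the scaffold peaks of high temperature 1, against 12.4% for identical peaks in its whole list. In high temperature 3 they were 11.1% of the scaffold peaks, against 11.4% in its whole list, so the 2 libraries differed in this. Without high temperature 1, regions held by at least 2 libraries numbered 31 of 423 on scaffolds (7.33%), against 1.60% elsewhere, and those held by at least 4 numbered 9 (2.13%), against 0.0583%. Without high temperature 3 the first count was 46 (8.27%), against 1.78%, and without both libraries it was 26 of 376 (6.91%), against 1.34%.

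Counted by peaks, the difference was present in each list. Leaving out regions of high temperature 1 and 3 alone, the share of scaffold peaks that fell in a region of another library was 18.6%, 27.7%, 25.4% and 25.5% in high temperature 1 to 4, against 3.79% to 5.95% of the other peaks of those lists. It was 21.1%, 14.5%, 29.3% and 23.9% in normal temperature 1 to 4, against 3.49% to 4.19% of the other peaks. With the regions of high temperature 1 and 3 alone kept, the shares were 27.6% against 25.4% in high temperature 1. In high temperature 3 they were then 57.1% against 21.2%. Every library was thus above its own value elsewhere, though high temperature 1 only slightly when those regions were kept. High temperature 1 stayed in as a partner of the other lists, and these shares are not given without it. The libraries share these overlaps with each other and are not independent here, so no test was made.

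Recurrence went with width. Under the rule of 1 bp a wide peak meets a peak of another list more easily, and the part of this was not tested. Of the scaffold peaks wider than 500 bp, 112 of 187 (59.9%) fell in a region held by another library, against 29.8% of such peaks elsewhere. For peaks of 200 or 250 bp it was 50 of 361 (13.9%), against 6.54% elsewhere. Leaving out the peaks of high temperature 1 as members, though not as partners, 72 of 77 wide scaffold peaks (93.5%) were shared, against 309 of 504 wide peaks elsewhere (61.3%). With peaks of 200 or 250 bp alone, 0 scaffold regions were held by at least 4 libraries, and 15 of 346 (4.34%) were held by at least 2, against 2.63% elsewhere. Small scaffolds held 7 of the 14 regions of at least 4 libraries on 103 regions (6.80%), and large ones held the other 7 on 480 (1.46%).

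The 14 scaffold regions held by at least 4 libraries lay on 10 scaffolds and were 882 to 3879 bp wide. Their 78 peaks had a median width of 1166.5 bp, 71 of them were wider than 500 bp and 2 were 200 or 250 bp. High temperature 1 held 14 of the 14 regions, high temperature 2, 3 and 4 held 10, 11 and 8, and normal temperature 1, 2, 3 and 4 held 11, 3, 10 and 7. All 14 were held at both temperatures, 8 of them by more high than normal temperature libraries, 5 by equal numbers and 1 by more normal ones. Normal temperature 2 thus held the fewest and high temperature 1 the most. Without high temperature 1, 9 scaffold regions were held by at least 4 libraries. The same split by temperature is not given for regions elsewhere, so no lean is read from these counts. Genes near these regions were not analysed here.

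The region on chr1_NW_020109739v1_random from 496 to 2697 (2202 bp) was held by all 8 libraries. Its best peak stood at percentile 83.2, 98.7, 56.2 and 61.5 in high temperature 1 to 4, against 76.3, 8.08, 83.9 and 60.7 in normal temperature 1 to 4. The groups overlapped widely, and normal temperature 2, with a peak of 384 bp where the peaks of the other 7 were 720 to 2176 bp wide, was the lowest. The region spans all of the peaks of this scaffold, none of which lay outside it.

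A second chromosome 1 scaffold, chr1_NW_020109742v1_random, had a region from 13270 to 14206 (937 bp) held by 7 libraries, all but normal temperature 2. Its peaks were alike in width, from 833 to 910 bp. The percentiles were 99.4, 21.9, 15.0 and 98.5 at high temperature, against 77.0, 95.9 and 94.7 in normal temperature 1, 3 and 4. High temperature 2 and 3 were low here, and the other 5 libraries were at 77.0 or above.

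On chrUn_NW_020110058v1 the region from 5838 to 8703 (2866 bp) was held by the same 7 libraries. Its percentiles were 99.8, 96.0, 99.2 and 62.9 at high temperature, against 91.3, 29.6 and 94.2 in normal temperature 1, 3 and 4. The peaks were 2097 to 2865 bp wide. High temperature 4 and normal temperature 3 were below the rest.

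On chrUn_NW_020110161v1 the region from 190423 to 192559 (2137 bp) was held by 6 libraries and had the highest mean percentile of the 14, at 92.7. It stood at 99.8, 99.6, 98.6 and 62.7 at high temperature, against 99.9 and 95.9 in normal temperature 1 and 3. It lies on a large scaffold, and high temperature 4 was again the low value. On chrUn_NW_020109841v1 the region from 28515 to 30922 (2408 bp) was held by high temperature 1, 3 and 4 at 99.5, 98.6 and 85.0, against 73.0, 86.6 and 83.9 in normal temperature 1, 2 and 4. It was 1 of the 3 regions that normal temperature 2 held.

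The third region of normal temperature 2 lay on chrUn_NW_020110136v1 from 9449 to 12822 (3374 bp). It stood at 90.6, 89.8 and 93.3 in high temperature 1, 3 and 4, against 78.1 and 77.9 in normal temperature 2 and 4. The 3 high temperature values lay above both normal ones. With so few libraries such an order arises easily, and how often it occurs in regions elsewhere is not given here. Nothing is therefore read from it, here or in the regions below. On chrUn_NW_020110158v1 the region from 34 to 3749 (3716 bp) was held by all 4 high temperature libraries, at 69.3, 69.2, 35.03 and 99.6, and by normal temperature 3 at 26.9. This was the most uneven of the 14 in presence, and Fisher's exact test of 4 of 4 against 1 of 4 libraries gave an unadjusted p of 0.143. The same scaffold held a region from 157155 to 158395 (1241 bp) with peaks of high temperature 1 and 2 and of normal temperature 1, 3 and 4, the 1 region of the 14 with more normal than high temperature libraries.

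On chrUn_NW_020110165v1 a region from 58340 to 59221 (882 bp) was held by 5 libraries, at 92.7, 98.0 and 72.0 in high temperature 1, 2 and 4, against 57.4 and 12.1 in normal temperature 1 and 3. A second one on that scaffold, from 793979 to 795256 (1278 bp), was held by high temperature 1, 2 and 3 and normal temperature 1. In both, the percentiles at high temperature lay above those at normal temperature. At normal temperature the second region rests on 1 library. On chrUn_NW_020110163v1 the region from 830626 to 834504 (3879 bp) was the widest and had the opposite order, with 62.2, 32.3 and 0.218 in high temperature 1, 2 and 3, against 94.3 in normal temperature 1. The region from 283226 to 284137 (912 bp) on it was held by 2 libraries of each group, with overlapping percentiles.

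On chrUn_NW_020109838v1, whose peaks ended by 26.4 kb, lay 2 of the 14 regions. The one from 11625 to 12998 (1374 bp) stood at 99.2 and 75.5 in high temperature 1 and 3, against 14.1 and 17.9 in normal temperature 3 and 4. The one from 18153 to 19344 (1192 bp) stood at 99.4 and 94.8 in high temperature 1 and 3, against 43.7 and 53.3 in normal temperature 1 and 3. In both, the high temperature percentiles were higher, and both rest at high temperature on the pair of libraries that share identical peaks. In the second of them the peaks of that pair had the same start and end.

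**Figure D5:**
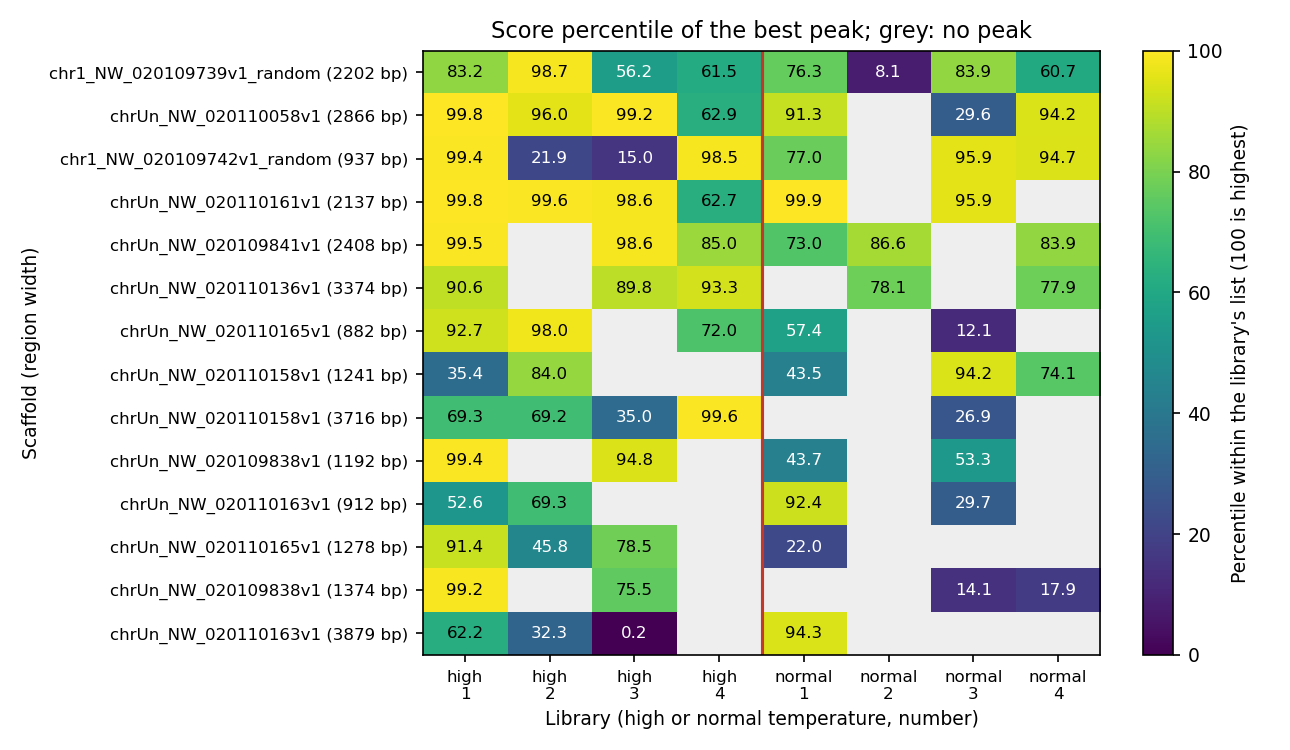
Each cell gives the score percentile (0 to 100, within the library's own list) of the best peak in each of the 14 regions of 4 or more libraries; rows are regions with their width, columns are libraries (high temperature left of the red line, normal temperature right), and grey means no peak. High temperature 1 fills all 14 rows and normal temperature 2 fills 3.

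The rank of a region was tested between temperatures for all union regions of the series held by at least 3 libraries of each group, a comparison added after the data were seen. There were 30 such regions, and 0 passed an adjusted p of 0.05 (0.0% called; two-sided exact permutation test), with 0 at an unadjusted p under 0.05. The 4 on scaffolds had differences, high minus normal temperature, of 17.7 percentiles on chr1_NW_020109739v1_random, -30.5 on chr1_NW_020109742v1_random, 17.8 on chrUn_NW_020110058v1 and 13.2 on chrUn_NW_020109841v1. Their unadjusted exact permutation p-values were 0.457, 0.571, 0.343 and 0.2, and each adjusted p was 0.980. The median difference was 15.4 over these 4 regions and 2.30 over all 30. With 3 libraries in each group the smallest possible exact permutation p is 0.1.

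Regions held at a single temperature were too rare in the whole series to say anything of scaffolds. Of the 583 scaffold regions, 0 were held by at least 3 of 4 high temperature and 0 of 4 normal temperature libraries, against 0.0333% of all union regions, and 0 were held by at least 3 of 4 normal and 0 of 4 high temperature libraries, against 0.00303% of all. Scaffolds held 2 of the first kind when a library had to cover 50% of a region to hold it, and the share elsewhere under that rule is not given here. With the upper 50% of peaks by score they held 1 of 273, against 0.0205% of regions elsewhere, and 1 region is too few to read. Fisher's exact test of presence could not pass an adjustment over the 66027 regions, since 4 against 4 libraries give no p below 0.0286. It called 0 regions on scaffolds or elsewhere (0.0% called), with 0 at an unadjusted p under 0.05 and a smallest exact p of 0.143, and nothing is read from it. Among the 71 scaffold regions of 2 or more libraries, 28 were held by high temperature libraries alone, 7 by normal temperature libraries alone and 36 at both temperatures. Of the 28, 20 belonged to high temperature 1 and 3 alone. The same split over all union regions is not given here, so no lean of scaffold regions is read from it.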

How the data were processed

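CUT&Tag was done on chicken liver, with 4 libraries at high and 4 at normal temperature, grouped by the treatment in the labels. The tools named, with no role stated, are cutadapt 1.9.2 and Bowtie2 2.2.4 and the build is galGal6, per the submitters' processing notes. What the authors deposited is a peak list for each library, where every peak has a score and a MACS-style name. The scale of the score, the peak caller's version and thresholds, duplicate handling and any control are not stated there. The lists start at unequal scores, so scores were ranked within a list, with mean ranks for ties. Starts were read as counted from 0.

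Scaffold peaks were compared between temperatures in 9 measures per library by two-sided exact permutation tests (70 assignments), and with the other peaks of each list in 4 measures by sign-flip permutation tests (256 assignments). Adjustment was by Benjamini-Hochberg within each set. The shares of peaks wider than 500 bp and in the top 10%, the split at 300 kb and the region rank test were chosen after seeing the data. Merging gave as many regions as bedtools 2.31.1. The tests and the region code were tested on simulated data. Scaffolds named are the 10 with most peaks, and regions named are those held by at least 4 libraries and the highest-scoring peak of each list. Random scaffolds are described by parent chromosome, and other scaffolds or regions named were chosen after their values were seen. The members and lists were chosen with earlier results of these data known. The work used scipy 1.17.1 and pandas 2.3.3 in Python 3.11.15. Alternatives were stricter lists, equal-length lists and lists with the identical peaks of high temperature 1 and 3 taken out of both. Others were each kind of scaffold alone, other merging rules, the omission of each library and the replicate number as a block. Genome sequence and genes were not used here.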

Additional observations from a re-analysis of the deposited data

Results flagged for a closer look

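In 10 of 26 comparisons of 4 libraries, 1 library stood far from the rest of its group, and about 1 in 20 would do so by chance. The measures overlap, so the 26 are not independent. High temperature 1 accounts for 9 of them, and normal temperature 2 for 1.

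High temperature 1 held 221 scaffold peaks (47 to 65 in high temperature 2 to 4), a share of 2.93% of its list (0.603% to 0.850%), on 43 scaffolds (17 to 19), and they covered 135 kb (27.8 to 34.9 kb). Their median width was 500 bp (200 to 213 bp), 49.8% of them were wider than 500 bp (20.6% to 25.5%), and their median score percentile was 30.2 (56.3 to 61.2). Relative to the other peaks of its own list, its scaffold peaks were wider by 163 bp at the median (0 to 13 bp) and ranked lower, by -20.3 percentiles (7.72 to 11.7). Its list also starts at the lowest score of the 8, at 30.0, and the part of this in the values was not tested. Normal temperature 2 covered 16.8 kb of scaffold sequence, against 29.4 to 30.9 kb in the other 3 normal temperature libraries.

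The excess of wide peaks on scaffolds over the rest of the list did not overlap between temperatures. It was 26.9, 22.1, 19.9 and 24.5 percentage points in high temperature 1 to 4, against 10.3, 2.28, 14.04 and 18.6 points in normal temperature 1 to 4. The difference of means was 12.0 points, and every high temperature library lay above every normal one (two-sided exact permutation p = 0.0286, the smallest possible; adjusted p = 0.114 over 4 measures), so it did not pass after adjustment. The measure was chosen after the data were seen. It largely repeats the share of wide scaffold peaks given above. The share subtracted was 0.349% to 1.16% in every list but high temperature 1, where it was 22.8%.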

How the results depend on the processing

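Of the differences between temperatures, 0 passed the adjusted threshold under any alternative run. Without 1 library no exact permutation p can go below 0.0571, and with the block none below 0.125, so those runs could not pass. In the others the smallest p is 0.0286, which passes adjustment only when many measures reach it. The upper 50% means peaks above percentile 50, which left 3508 to 6572 per list because of ties, so unequal parts were kept. In every cut list, ranks were taken anew among the kept peaks. The median score rank changed sign with the upper 50% of peaks (-8.37), equal numbers of peaks (-2.67), random scaffolds alone (-14.2), scaffolds of 300 kb or more (-1.17) and smaller ones (-5.76). The share on random scaffolds did so with equal numbers (0.383) and without identical peaks (0.185). Without each library in turn these 2 ran from -1.94 to 8.45 and from -0.686 to 0.396, the number of peaks from -19.7 to 38.3, the share of the list from -0.0986 to 0.676 and the number of scaffolds from -1.58 to 7.08. Scaffold minus other peaks, the score rank was 1.75 with the upper 50%, 5.76 with equal numbers and 8.84 on small scaffolds (exact sign-flip permutation, adjusted p = 0.0417), and -1.73 to 2.84 without each library. Among the kept peaks of the upper 50%, the top 10% share differed by 5.16 points (adjusted exact permutation p = 0.0156). That is a stricter cut than the top 10% of a whole list. The excess of wide peaks was 9.72 points on large scaffolds (adjusted exact permutation p = 0.0625) and 15.9 to 19.5 without each library. The median width differed by 502 bp on small scaffolds. The causes were not tested. The splits by scaffold size and by peak width were chosen after seeing the data, as was leaving out high temperature 1 and 3 together.

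Regions of at least 2 and at least 4 libraries numbered 35 and 7 with the upper 50%, 26 and 7 without high temperature 1 and 3, 15 and 0 with peaks of 200 or 250 bp, 27 and 12 with wide peaks alone, 52 and 7 on large and 19 and 7 on small scaffolds, and 31 to 68 and 9 to 14 without each library. Regions of at least 4 were 9 (1.54%, against 0.0504% elsewhere) when a library had to cover 50% of a region to hold it. As a share, scaffold regions of at least 2 libraries were 12.8% with the upper 50%, against 3.42% of regions elsewhere. The shares were 23.5% against 4.96% with wide peaks alone and 4.34% against 2.63% with peaks of 200 or 250 bp. They were 10.8% on large and 18.4% on small scaffolds, against 4.08% elsewhere. Without each library they ran from 7.33% to 12.7%, against 1.60% to 4.26% elsewhere. Regions of at least 3 high and 0 normal temperature libraries numbered 1 with the upper 50%, 2 with 50% cover and 0 to 1 without each library, and the converse 0. These are too few to read, and the share elsewhere is given above for the upper 50% alone. Fewer peaks or libraries tend by construction to leave fewer regions of at least 2 or at least 4 libraries. Regions of a single temperature can become more, since a peak or library of the other group may be lost. Same-numbered libraries correlated at 0.115, -0.135, 0.138 and 0.176, and differently numbered ones at -0.230 to 0.239. Such weak values cannot decide whether the numbers pair the libraries. With the replicate number as a block the share of wide peaks had an adjusted exact permutation p of 0.5625 at the same difference of 17.7 points, no call changed, and 4 pairs cannot go below p = 0.125. The read depth behind the peaks is unknown and limits every count.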

Other observations

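Some scaffold peaks began at the very start of a scaffold. There were 8 peaks that started within the first 100 bases, on 7 scaffolds, of which 6 were wider than 500 bp and 5 belonged to high temperature 1. The scaffold chrUn_NW_020110003v1 had 3 peaks in all, 2 of them in high temperature 1 and 1 in normal temperature 4, where it was the third-highest score of the list. On chr1_NW_020109743v1_random, high temperature 1 held 5 of 8 peaks, and the median percentile of the 8 was 11.8, so that this scaffold carried wide peaks (median 1360 bp) of low rank.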
